A study of Mus musculus with 7 samples.

Results

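The aryl hydrocarbon receptor genes described here are 7 genes of 1 signalling pathway, namely the receptor (Ahr), its DNA-binding partner (Arnt), its repressor (Ahrr) and 4 genes that the receptor is known to induce (Tiparp, Cyp1b1, Nqo1 and Cyp1a1). They were taken by symbol from the 48795 genes of a read count table, and 6 of the 7 had enough reads to be tested, as had 14002 of all genes. They were selected on their levels in these same KO and WT libraries, so their fold changes and adjusted p-values are a description and lend no weight of their own. The RNA came from tibialis anterior (TA), a fast muscle of the lower leg, of male mice aged 6 months, with 3 WT and 4 miR-486 KO (miR-486-/-) libraries, and the labels name no drug, toxin or other treatment. The KO mice lack the miR-486 hairpin, which lies within the Ank1 gene, in every cell. The labels give the WT mice as C57BL/6 and the KO mice as FVB N/J, although the WT columns of the table are named FVB and backcrossing to 1 common background is described in the study's methods, so strain and genotype cannot be told apart. The study's methods count mice as replicates, with a larger WT cohort than the 3 WT libraries used here, but no label ties a library to its own mouse, so every p-value covers only the spread from library to library.

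The aryl hydrocarbon receptor is a transcription factor that waits in the cytoplasm with chaperones until a small molecule binds it. Such ligands include dioxins, plant compounds and products of tryptophan breakdown. The bound receptor enters the nucleus, pairs with ARNT and binds DNA at a short element with the core GCGTG, from which genes of drug metabolism are switched on, while AHRR and TIPARP restrain it in a feedback loop.

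Each library held between 23839577 and 28168275 reads in genes, and the muscle fibre markers (Ckm, Acta1, Myh4, Pvalb and 4 others) summed to between 121800 and 156600 CPM (reads of a gene scaled to library size). WT 3 stood apart. Its log2 CPM correlated with that of the other 6 libraries at 0.943 to 0.957, against 0.98 or more among the others, and 22.5% of its gene counts were mitochondrial, against 13.0% to 17.9%. The 6 tested genes of the pathway and the counts of calls in each list are therefore given with and without it. Ank1, the host gene, was at 264 to 299 CPM in WT and 244 to 273 CPM in KO, and the row for the hairpin itself held 1, 1 and 0 reads in WT and 0 in all 4 KO libraries, too few to check the labels.

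To show what the receptor could read near these genes, the 300 bases from 250 before to 50 after each RefSeq start site (GRCm38.p6) were searched for GCGTG on both strands. Promoters were given for 6 of the 7 genes and not for Ahr. The core was present in 5 of the 6, once each in Tiparp, Cyp1b1, Arnt and Cyp1a1, 3 times in Ahrr and not in Nqo1. Each match is printed 5′ to 3′ along the gene with 12 bases on either side, and the capitals mark the core, which appears as CACGC where it lies on the opposite strand.
Tiparp: ctccgtccggagCACGCgcacgggaggcg
Cyp1b1: cgtcccgcccctCACGCcccaccccctaa
Cyp1a1: tcagataaggagGCGTGgccaacagacac
Arnt: ccatagtttgggGCGTGtcttctgcccag
Ahrr, distal: tattgaaagggcGCGTGgcaggcagggac
Ahrr, middle: ggacaaggatgtGCGTGcgccctctgccg
Ahrr, proximal: gcggggcggctcGCGTGctggggtggggc

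The Tiparp match lies at chr3:65528265-65528293, with its core starting 170 bases before the start site. That of Cyp1b1, a gene on the minus strand, lies at chr17:79715121-79715149, 76 bases before its start site. The Cyp1a1 match is at chr9:57697547-57697575, 54 bases upstream, and the Arnt match at chr3:95434349-95434377, 29 bases upstream. The Ahrr matches, on the minus strand, start 107, 82 and 27 bases upstream, and only the one nearest the start (chr13:74292342-74292370) holds the longer form TNGCGTG, which contains the core. These letters are common. Of 32851 mouse promoters of the same length, 32.4% held the core at least once, 3.92% held it 3 times or more, and 5.07% held TNGCGTG. Among genes with a promoter given, 53.4% of those called higher in KO, 40.2% of those called lower and 55.2% of those not called held the core. A match is a description of the sequence and not a binding site, and the windows leave out more distant enhancers.

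Tiparp, which encodes a mono-ADP-ribosyltransferase that modifies and restrains the receptor, was the induced gene with the most reads. Its level was 17.1, 20.7 and 16.2 CPM in WT 1 to 3 and 47.3, 50.8, 47.3 and 62.0 CPM in KO 1 to 4. All KO libraries lay above all WT libraries, with the lowest KO library at 2.29 times the highest WT library. The means were 18.0 ± 2.38 (SD, n = 3) and 51.8 ± 6.97 CPM (SD, n = 4), which gave a log2 fold change of 1.53 (SE 0.15, 95% interval 1.19 to 1.87, edgeR adjusted p = 0.00684). Without WT 3 the log2 fold change was 1.46 (edgeR adjusted p = 0.000169). The gene lies at chromosome 3, 65528410 to 65555518, plus strand, and its 5′ end overlaps a pseudogene on the other strand, 4931440P22Rik, which held 6 to 19 reads per library against 393 to 1508 for Tiparp.

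Cyp1b1 encodes a cytochrome P450 that oxidises polycyclic hydrocarbons and oestrogens and is found outside the liver, above all in stromal and vascular cells. It was scarce, with 15, 9 and 8 reads in WT and 20, 46, 45 and 39 reads in KO. These counts correspond to 0.512, 0.338 and 0.329 CPM in WT and 0.752, 1.83, 1.68 and 1.60 CPM in KO. The groups did not overlap, but KO 1 lay nearer to the WT libraries than to the other 3 KO libraries. The log2 fold change was 1.87 (SE 0.37, 95% interval 1.02 to 2.73, edgeR adjusted p = 0.0405) and 1.77 without WT 3 (edgeR adjusted p = 0.0206). The call was lost when any of WT 1, WT 2, KO 2, KO 3 or KO 4 was left out, with edgeR adjusted p from 0.0632 (without WT 1) to 0.125 (without KO 3).

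Nqo1 encodes a quinone reductase that detoxifies quinones with 2-electron transfer and answers both to this receptor and to the stress factor NRF2. It stood at 8.91, 7.96 and 6.21 CPM in WT and 16.2, 18.0, 15.3 and 15.2 CPM in KO. No KO library was as low as any WT library, and the KO values were close together. The means were 7.69 ± 1.37 (SD, n = 3) and 16.2 ± 1.32 CPM (SD, n = 4), which gave a log2 fold change of 1.07 (SE 0.15, 95% interval 0.73 to 1.41, edgeR adjusted p = 0.0167), or 0.94 without WT 3 (edgeR adjusted p = 0.000697). Leaving out any 1 KO library took the edgeR adjusted p to between 0.0597 and 0.0693, with the log2 fold change between 1.02 and 1.10.

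Cyp1a1, the P450 that is the textbook marker of receptor activation in liver and lung, did not share this pattern. It held 21, 42 and 15 reads in WT and 11, 23, 14 and 16 reads in KO, or 0.717, 1.58 and 0.617 CPM against 0.413, 0.914, 0.523 and 0.658 CPM. The groups overlapped, and WT 2 alone was the highest library. The log2 fold change was -0.63 (SE 0.41, 95% interval -1.57 to 0.31, edgeR adjusted p = 0.416), and it was -0.09 without WT 2 and -0.86 without WT 3 (edgeR adjusted p = 0.902 and 0.188). The interval spans both a clear fall and a small rise. With so few reads and this spread between the WT libraries no direction can be given, and the part of each was not tested.

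**Figure D1:**
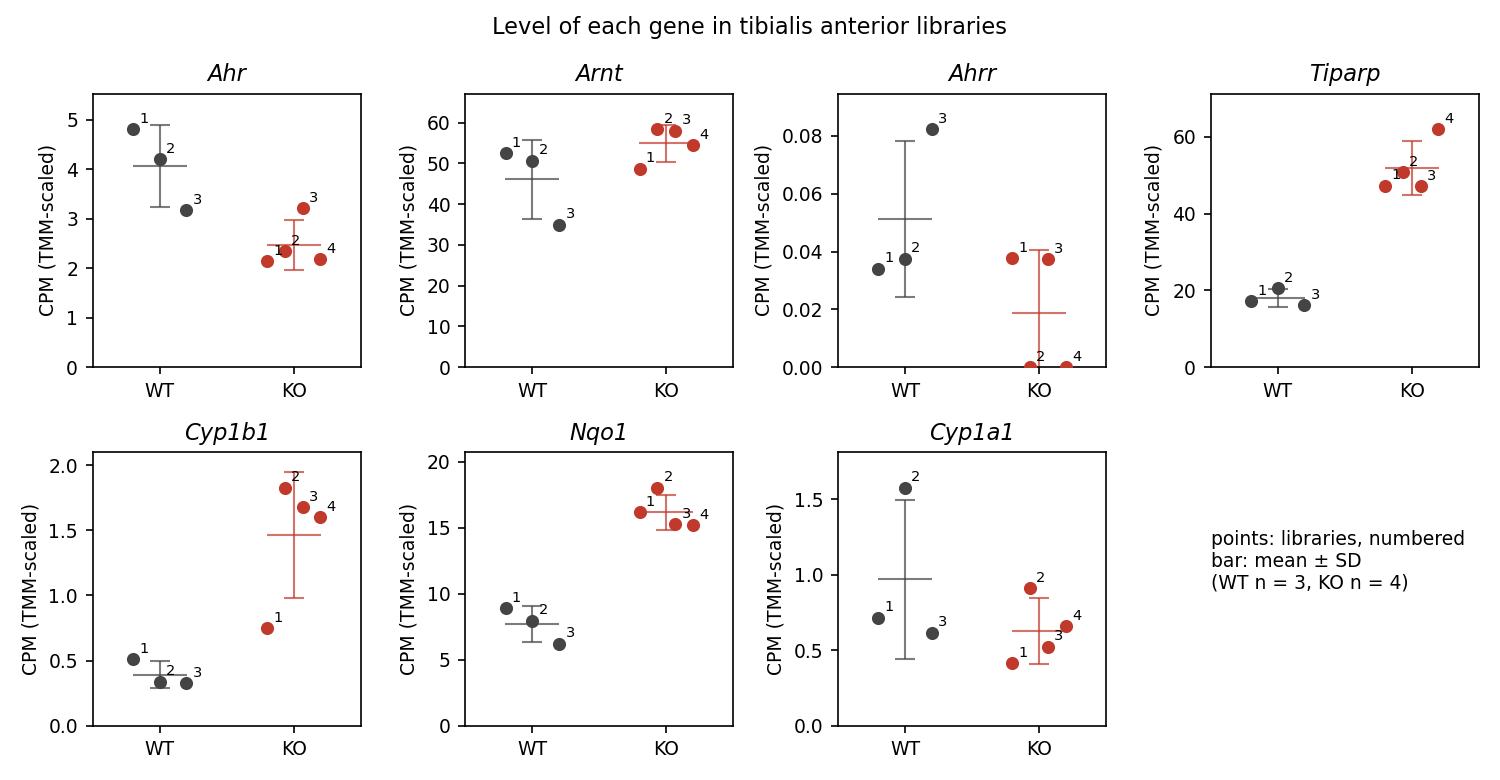
Level of each of the 7 genes in TMM-scaled CPM (vertical axes, each from 0) in 3 WT and 4 KO libraries, with points numbered by replicate and bars giving the mean ± SD. The KO points lie above all WT points in Tiparp, Cyp1b1 and Nqo1 whereas the groups overlap in Ahr and Arnt, where 1 KO point of each lies within the WT range, and in Ahrr and Cyp1a1.

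The receptor itself was lower on average in KO. Ahr was at 4.81, 4.20 and 3.17 CPM in WT and 2.14, 2.34, 3.21 and 2.18 CPM in KO. WT 3 and KO 3 met in the middle, and the other WT libraries were above all KO libraries. The log2 fold change was -0.72 (SE 0.21, 95% interval -1.21 to -0.23) and did not pass the test (edgeR adjusted p = 0.118), whereas without WT 3 it was -0.86 and passed (edgeR adjusted p = 0.0164). The gene is at chromosome 12, 35497974 to 35535038, minus strand.

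Arnt encodes the partner that the receptor shares with the hypoxia factors. It was at 52.5, 50.7 and 35.0 CPM in WT and 48.7, 58.4, 58.1 and 54.5 CPM in KO. WT 3 was the low library, and the other WT libraries fell within the KO range. The log2 fold change was 0.25 (SE 0.16, 95% interval -0.11 to 0.62, edgeR adjusted p = 0.403) and 0.09 without WT 3 (edgeR adjusted p = 0.543). Ahrr, the repressor that competes with the receptor for ARNT, had 1, 1 and 2 reads in WT and 1, 0, 1 and 0 reads in KO, a total of 4 against 2, and was not tested. Its mean was 0.0513 CPM in WT and 0.0187 CPM in KO. For scale, even 0 reads over the group would still allow up to 0.0374 CPM in WT and 0.0292 CPM in KO. A difference in Ahrr was therefore not detectable.

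In all, 3 of the 6 tested genes were called higher in KO at an edgeR adjusted p under 0.05, where 0.964% of all genes tested were called higher. By edgeR 0 were called lower, against 1.85% of all genes, while 1 (Ahr) was lower at an unadjusted p under 0.05, 1 was called by limma voom and 0 by DESeq2. In either direction 2.81% of all genes were called. Their levels did not overlap between groups in 3 of 6, against 22.4% of all genes. Since the genes were picked with these values known, nothing is read from the counts. Without WT 3, 3 were called higher and 1, Ahr, lower, where 6.15% of genes tested were called higher and 6.55% lower.

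**Figure D2:**
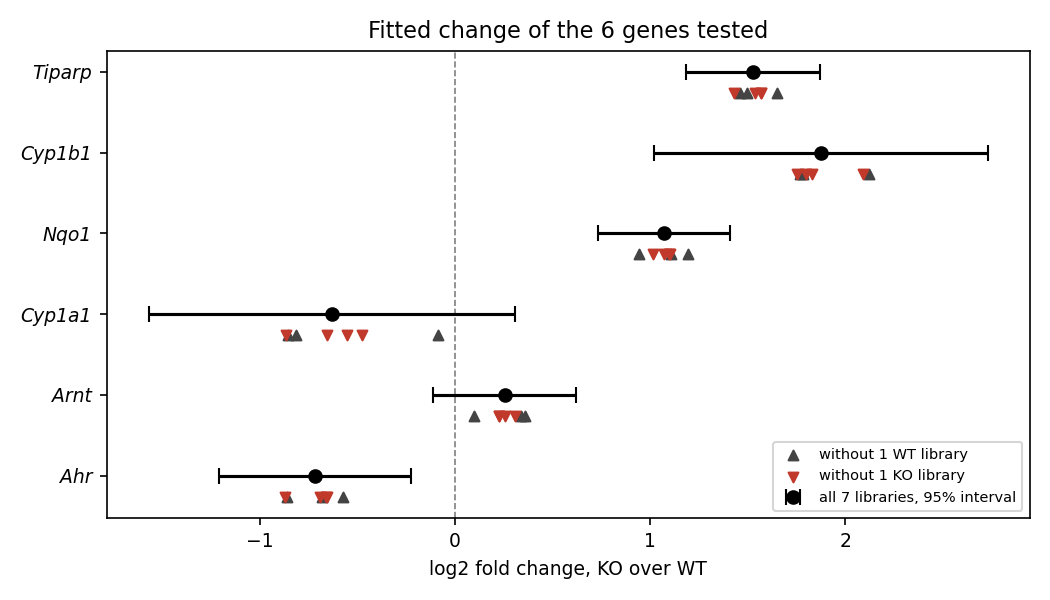
Log2 fold change of KO over WT (horizontal axis) for the 6 genes tested, with the 95% interval from all 7 libraries (black) and the value with each single WT or KO library left out (triangles). The Tiparp, Cyp1b1 and Nqo1 values stay above 0.9 and those of Ahr below -0.5, whereas the Cyp1a1 value moves from -0.63 to -0.09 without WT 2.

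Levels can be compared between genes only per length, in CPM per kilobase of merged exons. In WT the medians were 6.33 for Arnt, 5.13 for Nqo1 and 3.93 for Tiparp, and the ranges of these 3 genes overlapped. Ahr followed at 0.682, Cyp1a1 at 0.257 and Cyp1b1 at 0.0579, and of these only Ahr and Cyp1a1 overlapped. In KO, Tiparp (median 11.3) and Nqo1 (median 10.1) came first with overlapping ranges, and both lay above Arnt (median 7.03) in every library. Ahr (0.367), Cyp1b1 (0.281) and Cyp1a1 (0.212) followed. Cyp1b1 overlapped Cyp1a1 but not Ahr in KO, where its highest library was at 0.313 and the lowest Ahr library at 0.348. Ahrr stood last in both groups, at medians of 0.00398 and 0.00198.

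**Figure D3:**
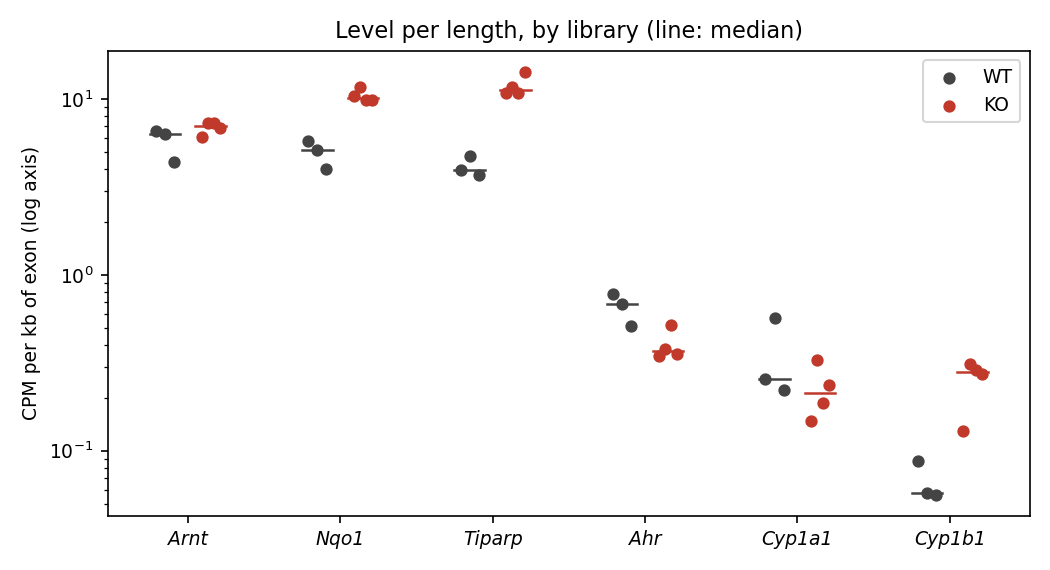
Level per length of 6 genes in CPM per kilobase of exon (log axis) in WT and KO libraries (points), with the group median as a line. Arnt, Nqo1 and Tiparp lie above 3 CPM per kilobase in every library and Ahr, Cyp1a1 and Cyp1b1 lie under 1, and the KO points of Nqo1 and Tiparp lie above those of Arnt.

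Other enzymes of the classic receptor battery were at or near the limit of detection. Of 12 such genes, only Scin could be tested. Among them were Cyp1a2, Aldh3a1, Gsta1 and the Ugt1a6 and Ugt1a7 forms, which share exons, so their separate counts are uncertain. Scin, an actin-severing protein, averaged 1.08 ± 0.27 CPM (SD, n = 3) over the WT libraries and 1.11 ± 0.17 CPM (SD, n = 4) over the KO libraries, with a fitted log2 fold change of 0.03 (edgeR adjusted p = 0.948), and of -0.07 without WT 3 (edgeR adjusted p = 0.892). The other 11 had at most 10 reads in any library, and Serpinb2 had 0 in all. Gsta1, a glutathione transferase singled out after its values were seen, had 3, 3 and 10 reads in WT and 0 in all 4 KO libraries. Its pooled WT level was 6.84 times the KO floor of 3 reads over the group, and 3.68 times that floor without WT 3. These ratios leave out the counting error of the WT reads and the spread between libraries, so they set no lower limit. Hepatocyte markers such as Alb summed to 19.6, 2.10 and 41.3 CPM in WT and to between 1.07 and 2.84 CPM in KO. Their part in the Gsta1 reads was not tested.

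Among 15 genes of the receptor complex and its cofactors, which include the chaperones Hsp90aa1 and Hsp90ab1, edgeR called 1 higher and 0 lower, against 0.964% and 1.85% of all genes, with a median log2 fold change of 0.04 against -0.02 over all genes. At an unadjusted p under 0.05, 2 were higher and 0 lower (8.14% and 12.1% of all genes), DESeq2 called 2 and 0 (3.24% and 4.76%) and limma voom 3 and 0 (7.99% and 8.77%). The one gene was Nrip1, a corepressor of nuclear receptors in metabolic tissue, at 27.3, 24.9 and 30.9 CPM in WT and 54.5, 50.9, 57.7 and 72.7 CPM in KO. Every KO library was above every WT library (log2 fold change 1.09, SE 0.15, edgeR adjusted p = 0.0171), and the adjusted p lay between 0.0511 and 0.0737 when WT 2 or any 1 KO library was left out. The coactivator Ncoa3 had a log2 fold change of 0.40 (edgeR adjusted p = 0.113) and the NF-kB subunit Relb one of -0.33 (edgeR adjusted p = 0.353). Without WT 3, 3 of the 15 were called higher, namely Nrip1, Ncoa3 and the cochaperone Ptges3, against 6.15% of all genes.

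The relatives of the receptor in the bHLH-PAS family, which include the hypoxia and clock factors, gave 9 tested genes and 0 edgeR calls. Over all genes edgeR called 0.964% higher and 1.85% lower. At an unadjusted p under 0.05, 4 of the 9 were higher and 0 lower (8.14% and 12.1% of all genes). DESeq2 called 1 higher and 0 lower (3.24% and 4.76% of all genes), and limma voom 3 and 1 (7.99% and 8.77%). The smallest p-values belonged to Sim1 (log2 fold change 0.50, edgeR adjusted p = 0.101), Clock (0.58, edgeR adjusted p = 0.150) and Hif3a (0.95, edgeR adjusted p = 0.151). Without WT 3, where 10 of these genes passed the filter, Sim1 and Clock were called higher (log2 fold changes of 0.37 and 0.38), against 6.15% of all genes. Genes that make or break down natural ligands from tryptophan, or feed electrons to P450 enzymes, gave 6 tested genes and 0 edgeR calls, with 1 higher and 1 lower at an unadjusted p under 0.05 (8.14% and 12.1% of all genes). DESeq2 called 1 higher and 1 lower (3.24% and 4.76% of all genes), and limma voom 2 and 1 (7.99% and 8.77%). Kyat3, which turns kynurenine into kynurenic acid, had a log2 fold change of 0.78 (edgeR adjusted p = 0.0539) and Afmid, which forms kynurenine, one of -0.89 (edgeR adjusted p = 0.0695). The groups did not overlap in either of these genes or in Kyat1, which makes 3 of the 6 tested, against 22.4% of all genes. Without WT 3, 2 of the 6 were called higher, against 6.15% of all genes, namely Kyat3 (edgeR adjusted p = 0.00698) and the electron carrier gene Cyb5a (log2 fold change 0.47, edgeR adjusted p = 0.0110). Kyat1 had a log2 fold change of 0.21 (edgeR adjusted p = 0.290).

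NRF2 responds to electrophiles and oxidants, acts with small MAF proteins and shares Nqo1 with the receptor as a target. Of 26 genes of this system, all tested, edgeR called 2 higher and 0 lower, against 0.964% and 1.85% of all genes. The median log2 fold change was 0.15. At an unadjusted p under 0.05, 8 were higher and 1 (Ftl1) lower, against 8.14% and 12.1% of all genes. DESeq2 called 6 higher and 0 lower, against 3.24% and 4.76% of all genes, and limma voom 9 and 0, against 7.99% and 8.77%. The 2 genes called by edgeR were Nfe2l2, which encodes NRF2 itself, and Mafk, one of its small MAF partners. Nfe2l2 was at 33.4, 35.5 and 29.1 CPM in WT and 79.8, 52.0, 57.5 and 51.9 CPM in KO. KO 1 was the highest library and the groups did not overlap (log2 fold change 0.88, SE 0.18, edgeR adjusted p = 0.0410). Mafk was at 13.5, 12.2 and 15.1 CPM in WT and 22.6, 21.5, 20.1 and 21.5 CPM in KO. Its groups did not overlap either (log2 fold change 0.66, SE 0.11, edgeR adjusted p = 0.0270). Leaving out any library but WT 3 ended both calls, with edgeR adjusted p from 0.0736 without KO 1 for Nfe2l2 and from 0.0632 without WT 1 for Mafk.

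Gsr, the glutathione reductase, had a log2 fold change of 0.73 (edgeR adjusted p = 0.0649). Groups did not overlap in 12 of the 26 genes of the NRF2 list, against 22.4% of all genes. Of the lists above, the same held for 3 of 15 receptor complex genes, 2 of 9 bHLH-PAS relatives and 3 of 6 ligand supply genes. Of those below, it held for 9 of 18 hypoxia genes and 6 of 20 PARP family genes. Without WT 3, 8 of the 26 were called higher and 0 lower, against 6.15% and 6.55% of all genes. They were Nfe2l2, Mafk, Maff, Gsr, Gclc, Srxn1, Gstm1 and Gstm2, in which the last 5 encode enzymes of glutathione and peroxiredoxin chemistry.

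ARNT also serves the hypoxia factors. Of 18 hypoxia genes, all tested, edgeR called 0 in either direction, against 2.81% of all genes, with a median log2 fold change of 0.20. At an unadjusted p under 0.05, 6 were higher and 2 lower (8.14% and 12.1% of all genes), DESeq2 called 1 and 0 (3.24% and 4.76%) and limma voom 5 and 0 (7.99% and 8.77%). Egln3, an oxygen-sensing hydroxylase, had a log2 fold change of 0.64 (edgeR adjusted p = 0.0549), and Higd1a, a mitochondrial protein, had one of -0.42 (edgeR adjusted p = 0.205). Ddit4, an inhibitor of mTOR signalling that hypoxia and glucocorticoids induce, was at 3.79, 4.88 and 86.4 CPM in WT and 214, 173, 181 and 232 CPM in KO. WT 3 alone lay far above the other WT libraries and still under every KO library. With all libraries the change was 2.66 log2 units (SE 1.02, edgeR adjusted p = 0.197), and without WT 3 it was 5.53 (edgeR adjusted p = 4.11e-07). Without WT 3, 2 hypoxia genes were called higher (Egln3 and Ddit4), against 6.15% of all genes.

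TIPARP belongs to the PARP family, and the others of that family and the enzymes that remove ADP-ribose gave 20 tested genes. Of these, edgeR called 0 higher and 1 lower, against 0.964% and 1.85% of all genes, with a median log2 fold change of 0.13. At an unadjusted p under 0.05, 3 were higher and 2 lower (8.14% and 12.1% of all genes), DESeq2 called 1 and 2 (3.24% and 4.76%) and limma voom 3 and 2 (7.99% and 8.77%). The one gene was Parp3, which acts in DNA break repair. It was at 66.9, 64.5 and 78.1 CPM in WT and 41.7, 36.6, 36.6 and 41.6 CPM in KO. All KO libraries were below all WT libraries (log2 fold change -0.84, SE 0.12, edgeR adjusted p = 0.0167), and leaving out any 1 KO library took the adjusted p to between 0.0576 and 0.0804. Parp16, a PARP of the endoplasmic reticulum, had a log2 fold change of -0.54 (edgeR adjusted p = 0.0527) and Parp8 one of 0.33 (edgeR adjusted p = 0.129). Without WT 3, 2 were called higher (Parp8 and Oard1) and 2 lower (Parp3 and Parp16), against 6.15% and 6.55% of all genes.

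**Figure D4:**
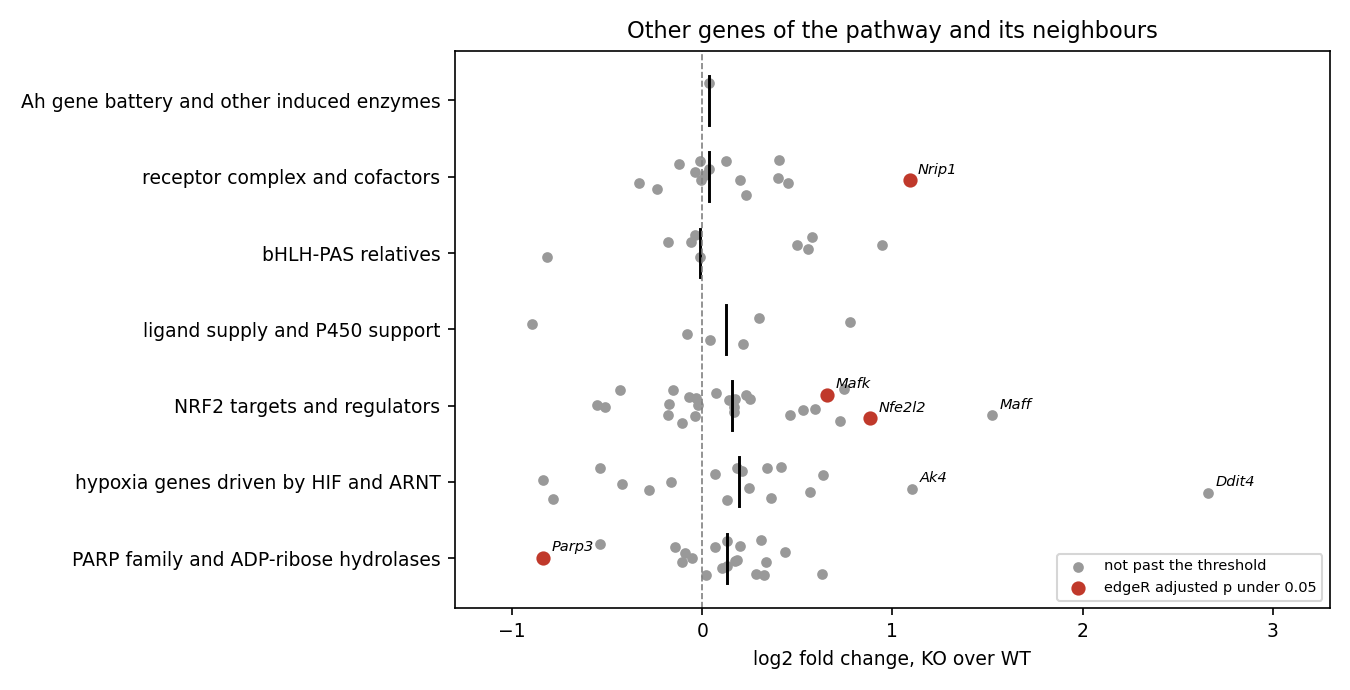
Log2 fold change of KO over WT (horizontal axis) for each tested gene of 7 lists around the pathway (points, spread vertically for legibility), with the list median as a black line and genes past the edgeR threshold in red. The red points are Nrip1, Mafk and Nfe2l2 on the higher side and Parp3 on the lower side, and all list medians lie between -0.01 and 0.20.

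To see which genes followed the same profile, 11159 tested, named protein-coding genes with a mean of at least 1 CPM were compared. The 7 members were left out. Each gene was set against Tiparp, Cyp1b1 and Nqo1 by the root mean square difference of centred log2 CPM over the 7 libraries. Klf15 came closest to Tiparp, with a difference of 0.067 against a median of 0.773 over the genes compared. Klf15 is a transcription factor that glucocorticoids induce in muscle, and it was at 17.7, 19.9 and 16.2 CPM in WT and 51.2, 50.1, 47.8 and 57.2 CPM in KO. The next were Foxo1, a transcription factor of the fasting and atrophy response (0.161), and Pde4d, a cAMP phosphodiesterase (0.226).

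Cyp1b1 was followed less closely, by the interleukin-6 receptor gene Il6ra (0.197), Arhgap6 (0.250) and Nudt11 (0.251), against a median of 0.639. Nqo1 was followed by Hccs, which attaches haem to cytochrome c (0.119), Tmco4 (0.138) and the MAX-binding repressor Mxi1 (0.139), against a median of 0.560. With 7 libraries in 2 groups such closeness mostly reflects a similar step between the groups after the pseudocount of 0.5 CPM is added. That pseudocount shrinks the step of the scarce Cyp1b1. Il6ra and Arhgap6 thus ranked close to it at log2 fold changes of 1.03 and 1.28, against 1.87 for Cyp1b1.

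Muscle holds other cells than fibres, and some of their markers also differed between groups. In bulk tissue, fewer cells of a type and less RNA per cell cannot be told apart. Endothelial markers summed to 406 to 469 CPM in WT and 307 to 345 CPM in KO, with 10 of 10 fitted lower and 1, Kdr, called. Over all genes tested, 7326 of 14002 were fitted lower, 1.85% were called lower and 22.4% did not overlap between groups. Fibro-adipogenic and fibroblast markers summed to 911 to 1039 CPM in WT and 473 to 678 CPM in KO. Of these, 7 of 10 were fitted lower and 2, Col1a1 and Col3a1, were called. The fall in the sum lay in these 2, at means of 133 and 438 CPM in WT and 33.0 and 133 CPM in KO. Pdgfra, Dcn and Pi16 were fitted higher, with Dcn at a mean of 182 CPM in WT and 231 CPM in KO. The sums of both lists were lower in every KO library than in any WT library. Pericyte and smooth muscle markers summed to 765 to 838 CPM in WT and 688 to 801 CPM in KO, which overlapped, but 9 of 10 were fitted lower, with a median log2 fold change of -0.55, 5 of 10 did not overlap between groups and 0 were called by edgeR. Leukocyte markers (62.3 to 121 against 61.7 to 119 CPM) and adipocyte markers (193 to 516 against 193 to 264 CPM) overlapped between the groups. The part of these cells in the levels of the receptor genes was not tested.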

How the data were processed

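RNA of TA muscle was measured in 3 WT and 4 miR-486 KO libraries, grouped by the sample titles. The authors deposited raw, whole-number read counts per Ensembl gene. HTSeq 0.6.1, STAR 2.5.2b, Trim Galore 0.4.2 and CASAVA 1.8.2 are named in the submitters' processing notes, whereas the methods of the study describe Salmon quantification. The labels describe Trizol extraction, the methods another kit, ribosomal depletion and stranded libraries. For the counts, the sources used here give neither genome build, annotation release nor strand setting, so overlapping and antisense genes are uncertain. The 5 summary rows were left out. Of all reads, 24.4% to 34.3% had several alignments, 3.25% to 4.34% lay outside features and 4.04% to 4.44% were ambiguous. Of 48795 genes, 48435 were matched to GENCODE M21 (GRCm38), whose coordinates are printed.

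With edgeR 4.0.16 in R 4.3.3, counts were filtered (filterByExpr, minimum count 10), TMM-scaled, tested (glmQLFit, glmQLFTest) and adjusted by Benjamini-Hochberg over 14002 genes at 0.05. CPM values are TMM-scaled. Intervals are 95%, and the depth floor is 3 reads, covering counting error only. No pair of libraries agreed within sampling noise. Alternatives were RLE factors, DESeq2 1.42.0, limma 3.58.1 voom with quality weights, no count filter, libraries without mitochondrially encoded genes, a replicate block and leaving out each library. The steps were tested on simulated data. Besides the 7 members, the text names the 3 genes of lowest p per list, the 3 genes closest in profile to Tiparp, Cyp1b1 and Nqo1 (pseudocount 0.5 CPM), Ank1, and genes that a count of calls refers to. The members and lists were chosen with earlier results of these data known. Sequences are those of RefSeq on GRCm38.p6, and matches of the miR-486 seed in 3′ UTRs were not analysed here. Figures were drawn with matplotlib 3.10.9.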

Additional observations from a re-analysis of the deposited data

How the results depend on the processing

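Of the members, Tiparp kept its call in 12 of 13 alternatives (log2 fold change 1.43 to 1.65), Nqo1 in 8 (0.94 to 1.19) and Cyp1b1 in 7 (1.75 to 2.12). Arnt and Cyp1a1 passed in 0 of 13, and Ahr passed with limma voom (-0.83, adjusted p = 0.0069) and without WT 3. The members called higher were 3 with RLE factors, DESeq2, limma voom, no count filter and no mitochondrially encoded genes, and 1 to 3 when 1 library was left out. Those called lower were 1 with limma voom and 0 to 1 when 1 library was left out. Over all genes, 135 were called higher and 259 lower, against 453 and 665 with DESeq2, 1119 and 1228 with limma voom, and 144 and 251 with RLE factors. Leaving out 1 library gave 10 to 873 higher and 10 to 929 lower, the highest without WT 3 and the lowest without KO 3 for both (10 lower without KO 4 also). All 394 genes called with 7 libraries were also called without WT 3. Srxn1 turned from -0.11 to 0.53 with limma voom, and ranged from -0.35 (without WT 2) to 0.58 (without WT 3) when 1 library was left out; the cause was not tested.

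With the replicate number as a block (replicates 1 to 3), 0 genes were called higher and 0 lower, 0 of them members, by edgeR, while 620 and 932 had an unadjusted p under 0.05. The deviations of same-numbered libraries from their group means correlated at -0.37, 0.32 and -0.16. With so few libraries per group, and WT 3 apart, these values cannot show whether the numbers pair the libraries. The edgeR block adjusted p of Tiparp, Cyp1b1 and Nqo1 was 0.121, 0.302 and 0.192. Searching TNGCGTG gave 1 of 6 promoters with a match and the shorter core gave 5. Cyp1b1, Cyp1a1 and Ahrr had few reads, at 8 to 46, 11 to 42 and 0 to 2 per library, so their values are uncertain. The planned search for the miR-486 seed in 3′ UTRs was not run.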
